A study of Homo sapiens with 6 samples.

Results

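The distal long arm of chromosome 13 was read here through 58 genes, from PROSER1 at the end nearer the centromere to CDC16 near the telomere. They were listed in chromosomal order by gene symbol, and a gene was measured where a probe set annotated to it alone was above the median of all values (52.5, in arbitrary intensity units) on at least 3 of the 6 arrays. Of the 58, 46 were measured in this way, out of 7035 genes tested on the arrays. The list had been drawn up from these same arrays, because neighbouring genes along this stretch read higher on one group of arrays: the members were chosen by their log2 differences between the groups. Those differences are given below as a description, and the counts of calls among them support nothing.

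The 6 arrays were hybridised with RNA of PC3, an epithelial cell line derived from a bone metastasis of a human prostate cancer. The 3 control arrays (replicates 1 to 3) are labelled both wild type and vector only, and the other 3 (replicates 4 to 6) are labelled as overexpressing human prostate-specific membrane antigen (PSMA), the protein made by FOLH1, from the plasmid pLNCX-PSMA. Per the labels' protocols, the PSMA cells received that plasmid and the control cells the vector alone by lipid transfection, with recovery and puromycin selection, and all cells grew in RPMI medium. The labels state neither the number of clones selected nor whether replicates were separate cultures, so the spread between arrays may be technical.

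The stretch is not a pathway. It holds genes of unrelated function that lie beside each other: the tumour suppressor RB1, whose protein holds back E2F transcription factors until the cell commits to DNA replication; the insulin-regulated transcription factor FOXO1; the epithelial factor KLF5; and single subunits of many complexes, such as Mediator, Integrator and the anaphase-promoting complex. Loss of the region around RB1 is a frequent event in prostate cancer. Subunits of one complex are usually encoded on different chromosomes, so the other subunits offer a view of the same complexes away from this stretch. The arrays measured RNA in bulk, in which fewer cells of a type and less RNA per cell cannot be told apart; DNA copy number was not measured.

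Signal on the probe sets of FOLH1 went against the labels. Its single-gene probe set read 61.5, 59.7 and 60.4 on the control arrays and 24.4, 32.0 and 28.0 on the arrays labelled PSMA, so every control array was the higher. The 3 other probe sets past the filter, annotated to both FOLH1 and the related FOLH1B, were 17.0-fold, 26.4-fold and 39.4-fold lower on the arrays labelled PSMA. Each direction below follows the labels as deposited, and "higher" means higher on the arrays labelled PSMA. The epithelial genes EPCAM, KRT8, KRT18, KRT19 and CDH1 read 925 to 6519 on all 6 arrays. Of the luminal prostate genes, KLK3, KLK2 and TMPRSS2 read 12.9 to 36.8, and the leucocyte genes PTPRC, CD3E, CD14 and CD79A 6.34 to 30.9, all under the filter. Of the fibroblast genes, COL1A2, DCN and LUM were under it too (5.02 to 41.2), and COL1A1 (78.5 to 94.9) passed it.

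Most tested members read higher on the arrays labelled PSMA, by amounts around a common level. The median log2 difference of the 46 tested members was 0.81, a 1.76-fold higher intensity on arrays labelled PSMA, and the quartiles were 0.64 and 1.05. The median over all 7035 tested genes was -0.01, with quartiles of -0.23 and 0.20. Of the 46, 45 had a positive difference. Every array labelled PSMA lay above every control array for 44 of them, against 32.9% of all tested genes, and the groups overlapped for FOXO1 and DGKH. In limma (adjusted p under 0.05 by the Benjamini-Hochberg method over all tested genes), 43 members were called higher and 0 lower, also 0 lower at an unadjusted p under 0.05; 30.1% of all tested genes were called higher and 33.5% lower. The 3 members without a call were FOXO1, DGKH and LCP1.

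**Figure D1:**
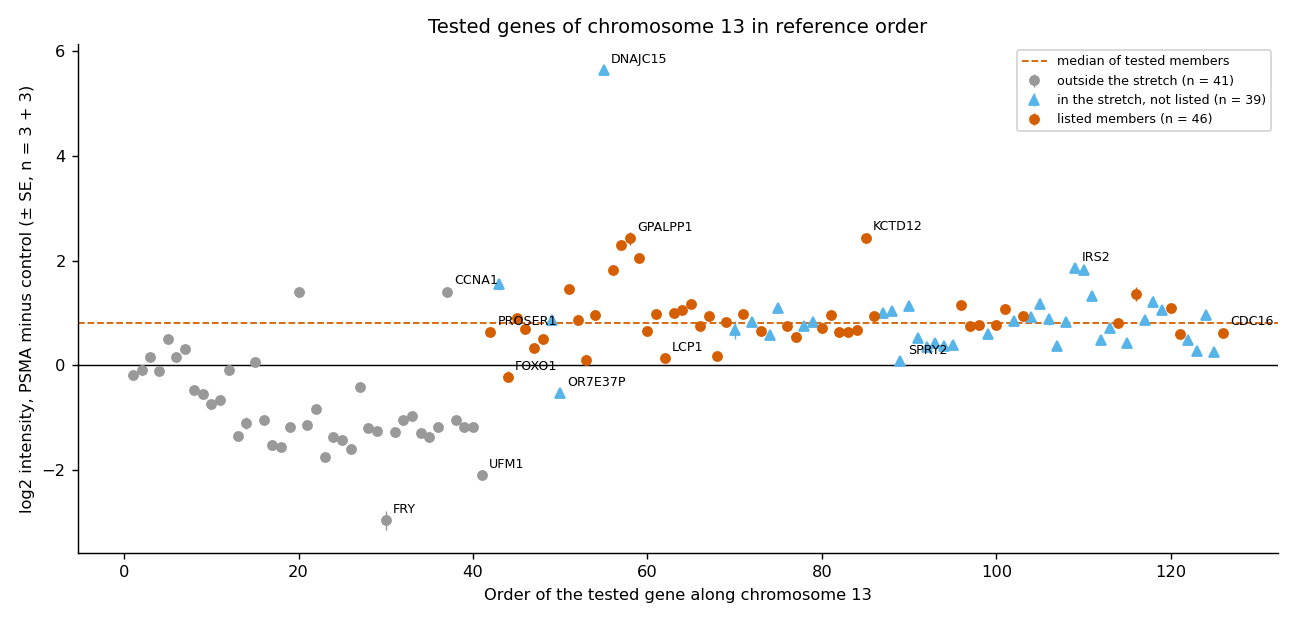
Log2 intensity on arrays labelled PSMA minus control arrays (vertical, ± SE from limma, n = 3 in each group) for the 126 tested genes of chromosome 13 in reference order (horizontal), with listed members, other genes of the stretch and genes outside it marked separately. The median difference is -1.14 from CRYL1 to UFM1 and 0.81, the dashed line, over the members from PROSER1 to CDC16. The tested genes before CRYL1 lie between -0.19 (MPHOSPH8) and 0.17 (ZMYM5).

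The level was nearly the same on each array labelled PSMA. With each member set against its own mean over the control arrays, the median over the 46 members was 0.81 on replicate 4, 0.83 on replicate 5 and 0.85 on replicate 6. Replicate 4 was above all 3 control arrays for 45 members, replicate 5 for 44 and replicate 6 for 45. The control arrays were less even: their medians were 0.03 (replicate 1), 0.04 (replicate 2) and -0.08 (replicate 3), and replicate 3 was the lowest control array for 34 of the 46. The median over all tested genes on that array was -0.01. Without control replicate 3, the members' median was 0.76. The array medians differed by far less within either group than between the groups, but the gap between groups follows from how the members were chosen.

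**Figure D2:**
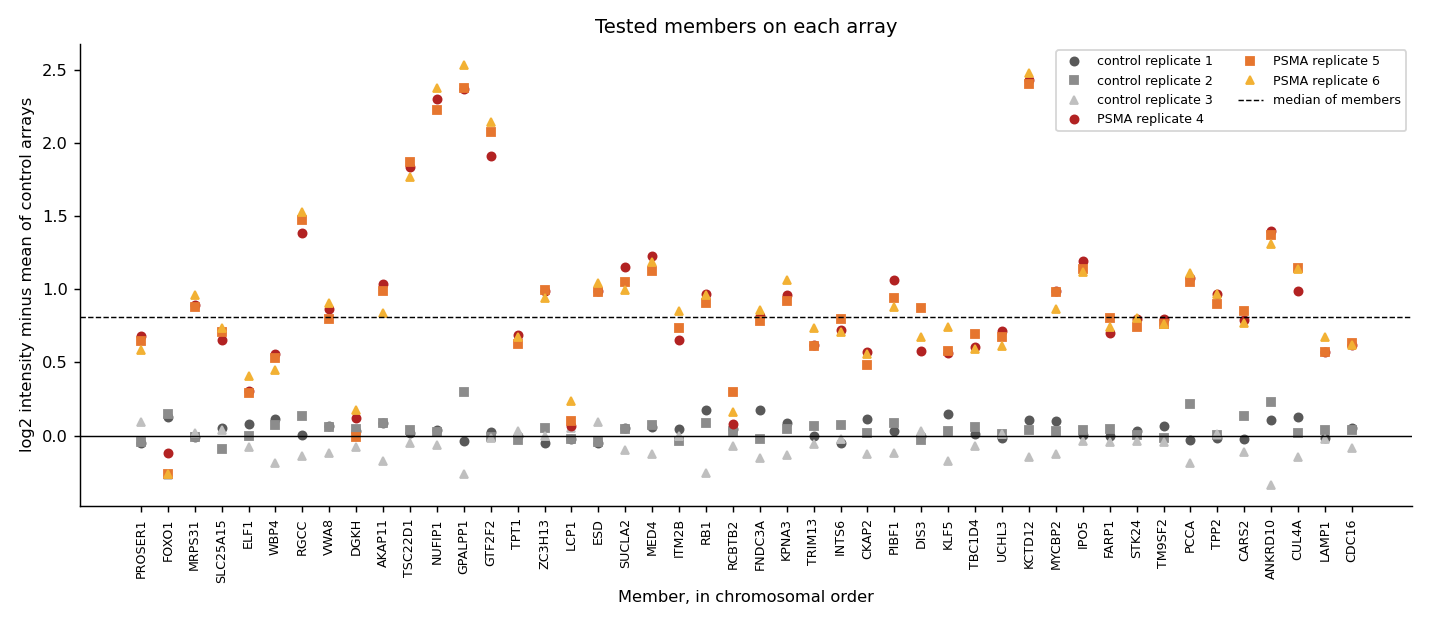
Log2 intensity of each of the 46 tested members on each of the 6 arrays, minus the mean of the 3 control arrays (vertical), in chromosomal order (horizontal); the dashed line is the members' median, 0.81. The 3 arrays labelled PSMA lie close together for most members, with NUFIP1, GPALPP1, GTF2F2 and KCTD12 above 1.9 on each of them and FOXO1 below 0 on each.

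The members shared a level but were not identical. Their differences had an SD of 0.56 and an interquartile range of 0.41 on the log2 scale, beside 0.49 and 0.43 over all tested genes. By these measures the members were spread about as widely as all tested genes. Of the members, 35 of 46 (76.1%) lay within 0.5 of the members' median. The 16% of all tested genes in that range reflects their median of -0.01, and not a wider spread. Outside this range, 7 members were above and 4 below. At the upper edge, MED4 (1.18) was the last inside and ANKRD10 (1.36) the first outside; at the lower edge, ELF1 (0.33) was inside and RCBTB2 (0.18) outside. Without the 4 consecutive members from TSC22D1 to GTF2F2, the SD was 0.42, and the median of the other 42 was 0.78.

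The members nearest to the median show what the common level looked like. FNDC3A, which encodes a membrane protein with fibronectin type III domains, read 214, 186 and 170.3 on the control arrays and 334, 326 and 344 on the arrays labelled PSMA. CARS2, the mitochondrial cysteinyl-tRNA synthetase, read 119, 133 and 112 on the control arrays and 209.7, 219 and 206 on the arrays labelled PSMA. The values for STK24, a kinase of the germinal centre kinase family that regulates migration and survival, were 856, 841 and 817 on the control arrays and 1453, 1403 and 1461 on the arrays labelled PSMA. In each of these genes the lowest array labelled PSMA was clear of the highest control array, with log2 differences of 0.82, 0.81 and 0.78. Their control levels ranged from about that of CARS2, 121 ± 10.5 (SD, n = 3), to 838 ± 19.4 for STK24.

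Along the chromosome, the median of the listed members was alike in most sections and stood out in one. Sections were set after the values were seen. The 10 tested members from PROSER1 to AKAP11 had a median log2 difference of 0.67, the 14 from TPT1 to CKAP2 0.78, the 7 from PIBF1 to MYCBP2 0.71, the 6 from IPO5 to TPP2 0.86 and the 5 from CARS2 to CDC16 0.81. The section from IPO5 to TPP2 was the narrowest, from 0.75 to 1.15 (SD 0.17). Between AKAP11 and TPT1, the 4 members TSC22D1, NUFIP1, GPALPP1 and GTF2F2 had a median of 2.17, a 4.51-fold higher intensity. The section from PIBF1 to MYCBP2 held KCTD12 (2.44) and had an SD of 0.65. These sections leave out the unlisted genes, which also held runs off the common level. Between TGDS (1.14) and IPO5 (1.15), the consecutive genes ABCC4, DNAJC3, UGGT2, MBNL2 and RAP2A were at 0.35 to 0.52. Farther along, the consecutive genes IRS2, COL4A1 and COL4A2 were at 1.86, 1.82 and 1.33.

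These 4 neighbours, with KCTD12 farther along, were the members most above the common level. TSC22D1, a leucine zipper transcriptional regulator induced by TGF-beta, read 964, 978 and 921 on the control arrays and 3407, 3499 and 3252 on the arrays labelled PSMA. NUFIP1, an RNA-binding partner of the fragile X protein that helps assemble small nucleolar ribonucleoproteins, read 116, 115 and 108 on the control arrays and 559, 529 and 588 on the arrays labelled PSMA. GPALPP1, a little-studied gene, read 60.1, 75.7 and 51.4 on the control arrays and 319, 319.8 and 357 on the arrays labelled PSMA. These 3 genes were 3.55-fold, 4.94-fold and 5.38-fold higher, with no overlap between the groups. GPALPP1 rests on a single probe set of the type marked _x_at, in which some probes can match other transcripts. The 3 probe sets of NUFIP1 gave 1.77, 2.12 and 2.30.

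GTF2F2, the small subunit of the general transcription factor TFIIF, read 154, 151 and 149.8 on the control arrays and 571, 639 and 670.0 on the arrays labelled PSMA, with a log2 difference of 2.05 (SE 0.0614). TPT1, the next member along, encodes the abundant growth-related protein TCTP and returned to the common level. Its brightest probe set read 10826, 10617 and 11039.8 on the control arrays and 17455, 16673 and 17265 on the arrays labelled PSMA, a log2 difference of 0.66. The highest of these values, 17455, was also the highest in the whole table, and the other 4 probe sets of TPT1 gave 0.69 to 1.12. Of the 5 TPT1 probe sets, the one with the largest difference was not of the _x_at type. Whether the brightest probe set was limited by the upper end of the scale was not tested.

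Directly before TSC22D1 lay DNAJC15, a mitochondrial co-chaperone gene that was not on the list. It read 15.3, 14.2 and 13.2 on the control arrays and 741, 684 and 682 on the arrays labelled PSMA, so it went from near background to a well-detected level. From DNAJC15 to GTF2F2, the consecutive tested genes thus differed by 1.83 or more on the log2 scale, with AKAP11 (0.96) on one side and TPT1 (0.66) on the other.

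NUFIP1 and GPALPP1 are transcribed away from each other from starts that lie 67 bases apart in the RefSeq table of build GRCh38.p14, so their promoter windows are largely the same DNA read on opposite strands. The 2 windows are shown because these adjacent genes had nearly the same difference (2.30 and 2.43). Each window runs from 250 bases before the start to 50 bases after it, and the capitals mark the 166 bases that both windows hold, as reverse complements of each other. NUFIP1 is at chr13:44989422-44989721, minus strand, and GPALPP1 at chr13:44989288-44989587, plus strand.
NUFIP1: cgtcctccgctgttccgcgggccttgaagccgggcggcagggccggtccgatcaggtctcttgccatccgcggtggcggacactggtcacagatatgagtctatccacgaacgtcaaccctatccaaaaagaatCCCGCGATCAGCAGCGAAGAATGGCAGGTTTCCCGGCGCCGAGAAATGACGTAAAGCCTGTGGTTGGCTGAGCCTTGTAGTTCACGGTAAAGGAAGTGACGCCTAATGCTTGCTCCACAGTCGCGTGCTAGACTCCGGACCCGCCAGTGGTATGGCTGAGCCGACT
GPALPP1: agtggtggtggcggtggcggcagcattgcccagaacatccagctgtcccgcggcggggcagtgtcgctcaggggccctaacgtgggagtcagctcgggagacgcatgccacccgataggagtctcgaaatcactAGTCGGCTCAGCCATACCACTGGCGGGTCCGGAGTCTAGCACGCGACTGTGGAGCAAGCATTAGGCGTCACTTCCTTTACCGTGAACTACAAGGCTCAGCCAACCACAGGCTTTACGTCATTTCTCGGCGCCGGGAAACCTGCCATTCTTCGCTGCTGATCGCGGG

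The other 3 members above the common level stood alone among listed neighbours. KCTD12, an auxiliary subunit of GABA-B receptors, read 82.9, 78.8 and 69.4 on the control arrays and 415, 407 and 428 on the arrays labelled PSMA. Its 2 probe sets gave 2.34 and 2.44, while MYCBP2 and UCHL3, the nearest tested members on either side, had 0.95 and 0.67. RGCC, a regulator of the cell cycle that responds to complement, read 22.5, 24.6 and 20.4 on the control arrays and 58.7, 62.4 and 64.6 on the arrays labelled PSMA; all its control values were below the filter. ANKRD10, an ankyrin repeat gene, read 109.9, 120.0 and 81.0 on the control arrays and 270.1, 265 and 253 on the arrays labelled PSMA. With each of the 6 arrays left out in turn, the log2 difference of ANKRD10 ranged from 1.19 to 1.48, and that of KCTD12 from 2.37 to 2.49. ANKRD10 came inside the limit of 0.5 above the median without control replicate 3 (1.19) and with a pseudocount of 16 (1.23), as did RGCC with the pseudocount (1.02).

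FOXO1 was the member with a negative difference. FOXO1, a transcription factor that insulin signalling keeps out of the nucleus, read 64.6, 65.5 and 49.0 on the control arrays and 54.5, 49.3 and 49.3 on the arrays labelled PSMA. The groups overlapped, with a log2 difference of -0.22 (SE 0.107). Control replicates 1 and 2 were above the arrays labelled PSMA, and control replicate 3 was slightly below them. The values lay near the filter of 52.5, and control replicate 3 and PSMA replicates 5 and 6 were under it. Without control replicate 3, limma called FOXO1 lower, at -0.35 (adjusted p = 0.00143). Its second probe set, under the filter, gave -0.30. In the reference order FOXO1 lies between LHFPL6 (1.55) and MRPS31 (0.91), both well above 0.

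The other members below the common level were close to 0. DGKH, a diacylglycerol kinase, read 55.5, 56.2 and 51.6 on the control arrays and 59.1, 54.1 and 61.5 on the arrays labelled PSMA, and the groups overlapped. LCP1, the actin-bundling protein L-plastin, read 382, 382 and 402 on the control arrays and 407, 415 and 458 on the arrays labelled PSMA. It was well detected, and its groups were separate by a narrow margin, at 1.1-fold. RCBTB2, related to regulators of chromosome condensation, read 71.1, 70.4 and 65.4 on the control arrays and 73.0, 84.6 and 76.9 on the arrays labelled PSMA, a log2 difference of 0.18. LCP1 lies between ZC3H13 (0.97) and ESD (1.01), and RCBTB2 between RB1 (0.95) and FNDC3A (0.82), so each near-zero gene had tested neighbours at the common level. LCP1 passed the limma threshold with quantile normalization, with centring of each array, with an intensity trend and without PSMA replicate 4, at 0.13 to 0.17; RCBTB2 did not pass with no filter, with the trend, or without control replicate 2 or 3 or PSMA replicate 5 or 6, at 0.12 to 0.19.

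**Figure D3:**
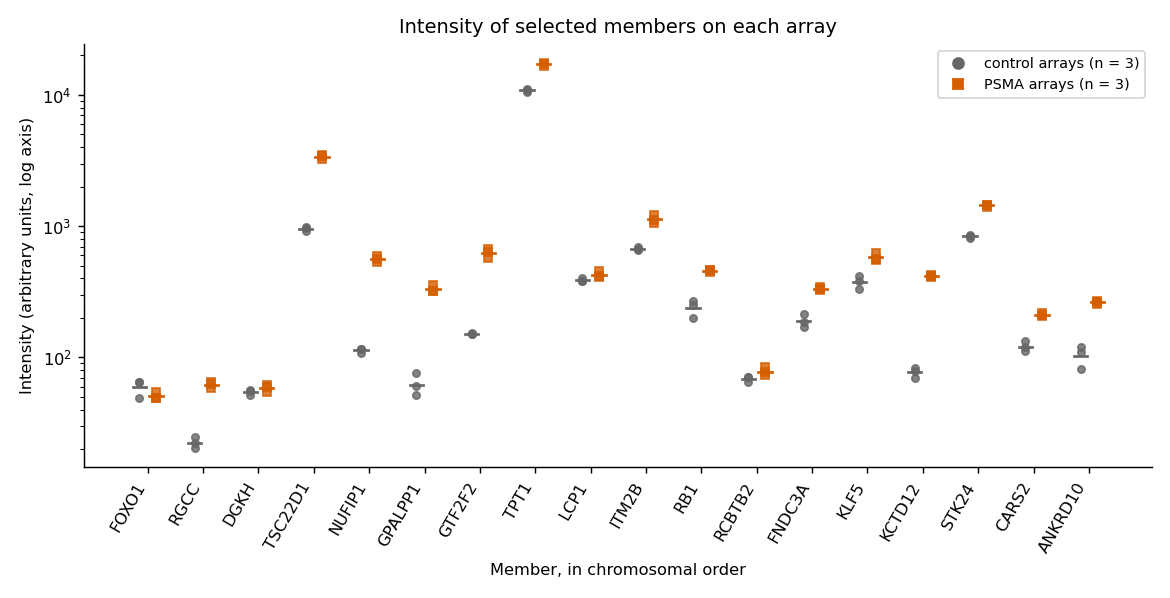
Intensity (arbitrary units, log axis) on each control array and each array labelled PSMA for the members far from the common level, the 3 nearest to it and RB1, KLF5, TPT1 and ITM2B; short lines are geometric means of 3 arrays. TSC22D1, NUFIP1, GPALPP1, GTF2F2 and KCTD12 are separated by 3.55-fold to 5.42-fold, while FOXO1 and DGKH overlap.

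Counts by role, here and in the paragraphs that follow, stem from how the members were chosen. Over all roles 43 of 46 members were called higher, and 30.1% of all tested genes were. Among members grouped as transcription and chromatin genes, 8 of 9 tested were called higher, with a median of 0.95. The group also took in RGCC, described above as a regulator of the cell cycle. RB1 read 269, 252 and 199 on the control arrays and 466, 446 and 463 on the arrays labelled PSMA, a 1.93-fold difference (log2 0.95, SE 0.0995); the lowest array labelled PSMA was well clear of the highest control array. KLF5, a zinc finger factor of proliferating epithelium, read 417, 384 and 333 on the control arrays and 557, 562 and 630.2 on the arrays labelled PSMA. Its 2 passing probe sets disagreed in size more than those of any other member, at 0.63 and 1.28. MED4 (1.18) belongs to the middle module of Mediator, INTS6 (0.74) to Integrator, which processes small nuclear RNA, and ELF1 (0.33) is an ETS family factor.

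Genes of RNA binding and translation were all called higher, 7 of 7, with a median of 0.81. Apart from NUFIP1, TPT1 and CARS2, they were ZC3H13 (0.97), a subunit of the m6A methyltransferase complex; MRPS31 (0.91), of the small mitochondrial ribosomal subunit; DIS3 (0.71), a catalytic ribonuclease of the RNA exosome; and WBP4 (0.51), a spliceosome-associated protein. The 3 mitochondrial metabolism genes were SUCLA2 (1.07), the ATP-forming subunit of succinate-CoA ligase, PCCA (1.08), the biotin-carrying subunit of propionyl-CoA carboxylase, and SLC25A15 (0.70), the ornithine carrier of the urea cycle. SUCLA2 read 529.9, 528 and 476 on the control arrays and 1135, 1057 and 1017 on the arrays labelled PSMA, a 2.09-fold difference with no overlap.

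All 7 of 7 tested members grouped as ubiquitin, peptidase and chaperone genes were called higher, between 0.63 and 1.09, beside 30.1% of all tested genes. The group also took in ESD, a hydrolase that is none of these. They were CUL4A (1.09), the scaffold of a ubiquitin ligase of DNA repair; ESD (1.01), an S-formylglutathione hydrolase; TPP2 (0.95), a large cytosolic peptidase; MYCBP2 (0.95), a ubiquitin ligase of axon biology; UCHL3 (0.67), a deubiquitinase; TRIM13 (0.66), a ligase of the endoplasmic reticulum; and CDC16 (0.63), a subunit of the anaphase-promoting complex. CUL4A read 261, 241 and 215 on the control arrays and 472, 527 and 524 on the arrays labelled PSMA. CDC16, the last member before the telomere, read 381, 377 and 347 on the control arrays and 566, 572 and 567 on the arrays labelled PSMA.

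Golgi, endosome and lysosome genes lay closer together than any other role group, with 4 of 4 called higher between 0.60 and 0.78. ITM2B, a membrane protein of the secretory pathway mutated in familial dementias, read 696, 658 and 674 on the control arrays and 1063, 1124 and 1221 on the arrays labelled PSMA, and its second passing probe set gave 0.47. LAMP1 (0.60) is a major lysosomal membrane glycoprotein, TM9SF2 (0.78) a Golgi membrane protein, and TBC1D4 (0.63) a RAB GTPase-activating protein of glucose transporter traffic. LAMP1 read 1641, 1698 and 1632 on the control arrays and 2458, 2462 and 2638 on the arrays labelled PSMA, so that the groups were well apart although the fold was only 1.52.

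Of 10 tested genes of signalling, cytoskeleton and transport, 8 were called higher; DGKH and LCP1 were the others. The importins IPO5 (1.15) and KPNA3 (0.98) carry proteins into the nucleus. IPO5 read 622, 638 and 605 on the control arrays and 1422, 1368 and 1351 on the arrays labelled PSMA, with 4 probe sets between 1.14 and 1.28. AKAP11 (0.96) anchors protein kinase A, FARP1 (0.75) is a FERM-domain guanine nucleotide exchange factor, CKAP2 (0.54) binds mitotic microtubules and PIBF1 (0.96) is a centrosomal protein. The remaining genes were PROSER1 (0.64) and VWA8 (0.86), with GPALPP1, ANKRD10, FNDC3A and RCBTB2 described above.

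Probe sets of one gene mostly gave the same answer. The members had 93 probe sets of their own, of which 76 passed the filter; 75 of these 76 were higher on arrays labelled PSMA, with a median of 0.83, and the other was that of FOXO1. Of 20 members with more than one passing probe set, 15 had probe sets within 0.25 of each other, and the median gap was 0.13. KLF5 had the widest gap, 0.65. The 17 probe sets under the filter had a median of only 0.17, from -0.30 to 1.11, and 12 were positive. For RB1, a second probe set far under the filter gave 0.09 beside 0.95 for the bright one.

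**Figure D4:**
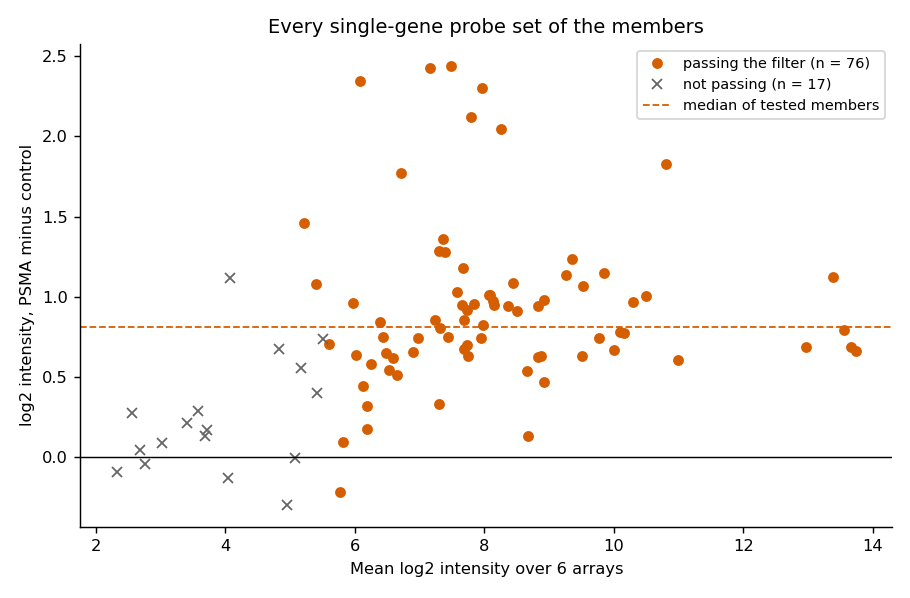
Log2 difference (vertical) against mean log2 intensity over the 6 arrays (horizontal) for the members' 93 single-gene probe sets, 76 passing the filter and 17 not. Passing probe sets are spread around 0.81 at every intensity, and those under the filter have a median of 0.17.

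The members' differences did not rise or fall steadily with brightness. The median was 0.71 in the 15 dimmest tested members, 0.95 in the 16 of middle level and 0.78 in the 15 brightest. Of the 4 members well below the common level, FOXO1, DGKH and RCBTB2 were among the dimmest and LCP1 among the brightest. RGCC, PIBF1, DIS3 and PCCA passed the filter through the arrays labelled PSMA alone and so had to read higher there. The other 42 members had a median of 0.79, with 39 called higher and 0 lower. On all 6 arrays, 38 members were above the filter. Of the 12 members not tested, 8 had no probe set annotated to them alone: NHLRC3, COG6, COG3, SETDB2, PHF11, WDFY2, VPS36 and SUGT1. The other 4 were dim. LMO7 read 11.6 ± 1.63 on the control arrays and 24.9 ± 0.492 on the arrays labelled PSMA (SD, n = 3); MTRF1 had a difference of 0.56 and KLF12 of 0.40 on its brightest probe set, each without overlap, and LRCH1 (0.04) read 6.11 to 6.70 on all arrays.

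Unlisted genes of the same stretch that passed the filter had a median close to that of the members. Between PROSER1 and CDC16 the arrays tested 39 genes that were not on the list, with a median of 0.83 beside 0.81 for the members. Of these 39, 37 were called higher and 1 lower in limma, and 30.1% of all tested genes were called higher. DNAJC15, RNASEH2B, TDRD3, POGLUT2 and DCUN1D2 passed the filter through the arrays labelled PSMA alone and so had to read higher there; the other 34 had a median of 0.83, with 32 called higher and 1 lower. With no filter the unlisted genes numbered 100 and their median was 0.23, as the 61 dim genes that entered had a median of 0.07; the members' median was then 0.79. The ends of the stretch were set with these arrays known, so this too is a description. TFDP1, which encodes the DP1 partner of E2F factors, read 893, 873 and 848 on the control arrays and 1742, 1697 and 1669.7 on the arrays labelled PSMA. Its log2 difference was 0.97, next to 0.95 for RB1.

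Some unlisted genes departed from the level as far as the members did. Above it by more than 0.5, besides DNAJC15, were IRS2 (1.86), an adaptor of insulin receptors; COL4A1 (1.82) and COL4A2 (1.33), paired basement membrane collagen chains; and LHFPL6 (1.55), a tetraspan membrane protein. Below it were the olfactory receptor pseudogene OR7E37P (-0.53), SPRY2 (0.08), an inhibitor of receptor tyrosine kinase signalling, GAS6 (0.26), the ligand of TAM receptors, and SLC9D1 (0.28). SPRY2 read 189, 187 and 168 on the control arrays and 188, 188 and 197 on the arrays labelled PSMA, and its groups overlapped. OR7E37P read 513, 532 and 500.5 on the control arrays and 380.5, 355 and 336 on the arrays labelled PSMA, the one gene of the stretch called lower.

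The direction changed between UFM1 and PROSER1. The last tested genes before PROSER1 were ALG5 (-1.04), EXOSC8 (-1.17), SUPT20H (-1.18) and UFM1 (-2.09), all lower on arrays labelled PSMA, and PROSER1 was at 0.64. Just before these 4, CCNA1, which encodes cyclin A1, was higher (1.41), and the 3 tested genes before it, SPART (-1.17), NBEA (-1.36) and RFC3 (-1.29), were lower. The 37 tested genes from CRYL1 to UFM1, the proximal part of the same arm, had a median of -1.14, a 2.20-fold lower intensity, with 30 called lower and 5 higher (33.5% and 30.1% of all tested genes). Beyond CDC16, 0 further genes of the chromosome were tested. A raised stretch of chromosome 14, from ATL1 to PIGH, had a median of 0.48 over 57 tested genes. There 32 of 57 genes (56.1%) lay within 0.5 of the chromosome 13 members' median, and in the unlisted genes of the distal 13q stretch 30 of 39 (76.9%). That range is centred on the chromosome 13 level, so these shares do not compare how uniform the stretches were. The SD and interquartile range were 0.50 and 0.65 in the chromosome 14 stretch. In the unlisted 13q genes, with DNAJC15 at 5.63, they were 0.90 and 0.59. These values were not tested against each other, since the choice of each stretch used them.

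Partner genes encoded elsewhere did not share the shift. Of 151 tested genes that belong to the same complexes and families as members, or to their known targets, and lie outside the stretch, 47 were called higher and 46 lower in limma, which is 61.6% called beside 63.6% of all tested genes. Their median was -0.01. Of the 151, 4 (POLA1, IPO9, CCNE2 and RBL1) reached the members' lower quartile, 0.64. The share of all tested genes that reached 0.64 was not counted, and 1.89% of all tested genes were higher by 2-fold or more. The count of 4 therefore does not set the partners apart from other genes. In 17 of the 19 lists with tested genes on both sides, every gene of the stretch lay above every partner outside it; the exceptions were the importins and the FOXO family. The position of the members in these lists follows from how they were chosen. The partners' own values were not used to choose the members. The partner lists were drawn up with earlier results of these data known, so their values too are a description.

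**Figure D5:**
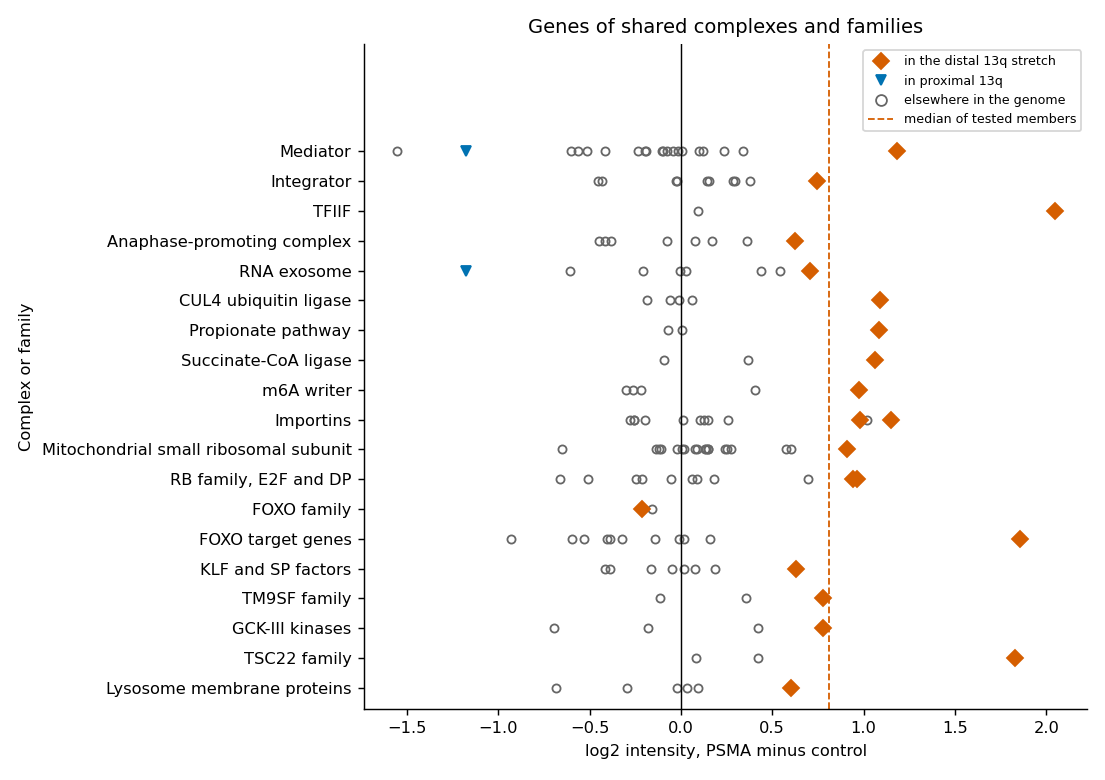
Log2 difference (horizontal) of genes in the distal 13q stretch, in proximal 13q and elsewhere in the genome, by complex or family (vertical). The 19 lists with tested genes inside and outside the stretch are drawn. Lists with no tested gene in the stretch, such as the E2F targets with POLA1 and CCNE2, are not. Partners elsewhere spread around 0, and CDK8 and EXOSC8 in proximal 13q lie at -1.18 and -1.17. The median over all 151 partners outside the stretch, drawn or not and with proximal 13q, was -0.01.

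For comparison with the counts in each list below, 30.1% of all tested genes were called higher and 33.5% lower. In the nuclear complexes, Mediator had 19 tested genes outside the stretch, of which 3 were higher, 9 lower and 7 without a call. MED21 was highest (0.34) and MED9 lowest (-1.55, limma adjusted p = 1.3e-07). The Mediator kinase CDK8, encoded in proximal 13q, read 827, 741 and 717 on the control arrays and 364, 335 and 312 on the arrays labelled PSMA, opposite to MED4 (1.18). Of 9 Integrator genes 4 rose, led by INTS3 (0.38), and 2 fell, led by INTS12 (-0.46). GTF2F1, the large subunit of TFIIF, had a difference of 0.09 with no call, beside 2.05 for GTF2F2. Of 4 m6A writer genes WTAP (0.41) rose and 3 fell, METTL3 most (-0.30).

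In the RNA exosome, 2 of 7 partners rose, 2 fell and 3 had no call. EXOSC10 rose by 0.55, and EXOSC8, in proximal 13q, read 1308, 1267 and 1296 on the control arrays and 583, 560.2 and 573 on the arrays labelled PSMA, while DIS3 was at 0.71. Of 7 subunits of the anaphase-promoting complex, 2 rose, with CDC27 (0.36) first, and 3 fell, with ANAPC13 (-0.45) first. The 4 tested partners of CUL4A, which were CUL4B (-0.01), DDB1 (-0.06), DDB2 (-0.18) and RBX1 (0.06), had no call in limma. Of the 7 tested partners of CUL4A, GTF2F2 and PCCA, DDB2 alone passed at an unadjusted p under 0.05. Of 10 importins and relatives 4 rose and 4 fell; IPO9 rose 2.02-fold (limma adjusted p = 2e-06) and IPO7 (-0.28) fell.

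Calls among the metabolic and organelle partners went in both directions. PCCB, the other subunit of propionyl-CoA carboxylase, had a difference of -0.07 and MMUT, later in that pathway, 0.00, both without a call, beside 1.08 for PCCA. SUCLG1 rose by 0.37 and SUCLG2 had -0.09 with no call, beside 1.07 for SUCLA2. Of 18 other genes of the small mitochondrial ribosomal subunit 9 rose (30.1% of all tested genes were called higher), MRPS14 most (0.60), and 1, MRPS33 (-0.65), fell. COG6 and COG3 were not measured; of the 3 measured genes of their complex, COG2 (0.49) and COG4 (0.39) rose. SNF8, a partner of the unmeasured VPS36, rose by 0.25. Of 5 lysosomal membrane genes, LAMP3 (-0.68) and CD63 (-0.30) fell, and LAMP2 had -0.02 with no call.

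Around RB1, the related pocket protein gene RBL1 read 95.8, 90.2 and 74.7 on the control arrays and 153, 122 and 148 on the arrays labelled PSMA and rose 1.62-fold (limma adjusted p = 0.00061). Of the 9 RB, E2F and DP genes outside the stretch 2 rose and 4 fell, E2F8 (-0.66) most. Of 5 genes of cyclin D kinases and their inhibitors, 2 rose (CDKN2A (0.19) most) and 2 fell (CDKN2D (-0.53) most). Of 21 tested E2F target genes 10 rose, 2 fell and 9 had no call, with a median of 0.14. Over all tested genes, 30.1% were called higher and 33.5% lower. POLA1, the catalytic subunit of DNA polymerase alpha, rose 2.39-fold (limma adjusted p = 1.8e-07), and RRM1 fell by 0.28. Whether these values and the RB1 difference are linked was not tested.

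Of the 10 tested FOXO targets outside the stretch, 7 fell in limma and 0 rose, also 0 at an unadjusted p under 0.05, with a median of -0.35. The 3 without a call were SESN1 (0.16), KLF2 (0.02) and GADD45A (-0.01). The same test called 33.5% of all tested genes lower. CCNG2, an atypical cyclin, read 283, 289.7 and 258 on the control arrays and 144, 142 and 150.2 on the arrays labelled PSMA and fell by 0.93, and BCL6, a transcriptional repressor, fell by 0.60 (limma adjusted p = 1.9e-06 and 6.8e-06). BNIP3, CDKN1B, CAT, PINK1 and TXNIP fell by 0.14 to 0.53. IRS2, a FOXO target within the stretch, was at 1.86. FOXO3 fell by 0.16 (limma adjusted p = 0.0231). Of 7 KLF and SP factors outside the stretch, KLF10 rose by 0.19 and 2 fell, KLF4 most (-0.42).

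The smaller families were mixed. TSC22D2 rose by 0.42 and TSC22D3 had 0.09 with no call, beside 1.83 for TSC22D1. STK25 rose by 0.42 while STK26 (-0.70) fell, and TM9SF4 rose by 0.36. These families are related in sequence, and the probe sets used were those annotated to 1 gene.

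Neighbouring genes with starts close together were compared next. RefSeq places 7 pairs of tested genes in the stretch with starts at most 1000 bases apart, transcribed away from each other, and 4 of the pairs include a member. The pairs differed by 0.12 (NUFIP1 and GPALPP1), 0.18 (ELF1 and WBP4), 0.25 (DIS3 and PIBF1) and 0.04 (CUL4A and the unlisted PCID2). Over all 7 pairs the median gap was 0.21, and over the 78 other adjacent pairs of tested genes in the stretch it was 0.35. The number of pairs is small, and the gaps were not tested.

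ELF1 and WBP4 are shown as the pair of members with the smallest differences (0.33 and 0.51), in contrast to NUFIP1 and GPALPP1. Their starts lie 123 bases apart, and the capitals again mark what both windows hold, 222 bases. ELF1 is at chr13:41061337-41061636, minus strand, and WBP4 at chr13:41061259-41061558, plus strand, in build GRCh38.p14.
ELF1: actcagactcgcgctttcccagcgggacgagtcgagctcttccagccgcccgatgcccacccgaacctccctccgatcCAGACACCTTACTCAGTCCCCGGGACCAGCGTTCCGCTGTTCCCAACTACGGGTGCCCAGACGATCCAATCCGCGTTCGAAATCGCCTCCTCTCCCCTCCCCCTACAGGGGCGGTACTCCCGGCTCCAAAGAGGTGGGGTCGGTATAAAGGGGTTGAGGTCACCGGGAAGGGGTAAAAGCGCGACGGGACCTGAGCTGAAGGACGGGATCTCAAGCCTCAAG
WBP4: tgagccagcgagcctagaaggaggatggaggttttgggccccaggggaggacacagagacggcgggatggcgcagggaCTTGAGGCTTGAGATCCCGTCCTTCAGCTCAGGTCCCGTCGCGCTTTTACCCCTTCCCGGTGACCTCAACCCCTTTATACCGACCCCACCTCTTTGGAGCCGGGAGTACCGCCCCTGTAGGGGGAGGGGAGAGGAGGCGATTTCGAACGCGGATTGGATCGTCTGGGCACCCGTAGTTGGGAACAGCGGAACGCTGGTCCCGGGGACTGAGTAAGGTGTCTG

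Short promoter motifs were counted in the members and in all tested genes. RefSeq promoter windows were found for 43 of the 46 tested members and 5931 of all tested genes, and the first window listed for a gene was searched on both strands. GGGCGG was in 62.8% of the members' windows and 72.6% of all, CCAAT in 27.9% and 38.2%, CCGGAA in 25.6% and 31.7%, TGACGT in 18.6% and 12.4%, and TATAAA in 6.98% and 5.21%. The median GC content was 65.3% and 65.7%. A match is a description of letters, not a binding site, and none of these shares was tested.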

How the data were processed

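The values used are the processed intensities the submitters deposited for each probe set on each array. Per the submitters' processing notes they come from GCRMA, whose version is not given in the sources used here. GCRMA corrects background, normalizes across arrays and pulls dim probe sets towards a low value, which shrinks their differences. The deposited intensities ran from 3.76 to 17455 and were taken as linear.

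Here they were put on the log2 scale with no pseudocount. Of 22277 probe sets, 62 controls were left out and 11303 passed the filter. Each of 7035 genes was represented by its brightest single-gene probe set, by mean log2 value. Differences (arrays labelled PSMA minus control) were fitted over all genes with limma 3.58.1 in R 4.3.3 (lmFit, eBayes). The fit was also run on simulated data with independent noise and few changed genes. Many genes were called here and replicates may be technical, so that run does not bear on the calls. Tests were two-sided, with Benjamini-Hochberg adjustment over all tested genes. Python 3.11.15 was used for summaries. Gene order, symbols, distances between starts and promoter windows are RefSeq's for GRCh38.p14. Since no build is named for the arrays, their values were placed along the chromosome by this gene order alone. The number of arrays, 3 in each group, limits the precision.

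The members and all lists were chosen with earlier results of these data known. Full values are given for FOLH1, members over 0.5 (log2) from the members' median, the 3 nearest to it, and RB1, FOXO1, KLF5, TPT1 and ITM2B. For partner lists, the largest increase and decrease past the threshold are named. Other genes with full values were chosen after their values were seen. The filter, the choice of probe set, the normalization, a floor, a pseudocount, the variance prior and each array were varied.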

Additional observations from a re-analysis of the deposited data

How the results depend on the processing

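The members' median log2 difference, 0.81, was 0.79 with no filter (50 members), 0.84 with the mean over probe sets, 0.85 with quantile normalization, 0.77 with a pseudocount of 16 and 0.76 to 0.85 with 1 array left out. Their SD, 0.56, was 0.50 with genes above the median on all 6 arrays (38 members), 0.54 with the mean over probe sets, 0.51 with the pseudocount and 0.55 to 0.57 with 1 array left out. The unlisted genes' median, 0.83, was 0.23 with no filter, where dim genes enter, 0.73 with the pseudocount and 0.74 to 0.86 with 1 array left out. Members well above the common level numbered 7; there were 5 with the pseudocount, on the stricter filter (RGCC and GPALPP1 not tested) and outside 1.5 interquartile ranges, and 6 to 7 with 1 array left out. Members well below it numbered 4; there were 2 on the stricter filter, 1 (FOXO1) outside 1.5 interquartile ranges, and 4 to 5 with 1 array left out. The count of members called lower was 0 to 1 with 1 array left out, the 1 being FOXO1 without control replicate 3. Members called higher numbered 37 to 45 and all genes called 3999 to 4614 over the 14 alternatives. Among the named members' differences 0 changed sign, 5 values gained a call and 6 lost one, all in FOXO1, LCP1 and RCBTB2. Differences of dim genes are limited by signal over background. No paired analysis was possible because the groups share no replicate numbers.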
